A study of Mus musculus with 12 samples.

Results

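The genes described here are nuclear genes named for subunits of the 5 respiratory complexes of the inner mitochondrial membrane. They were chosen by name, with earlier results of these data known. The names taken were symbols that begin with Nduf and the letter a, b, c, s or v before a digit, and the Sdh genes. Symbols that begin with Uqcr, Cyc1, Cox4 to Cox8 or Atp5 were also taken. Of the 55401 rows of the counts, 98 carry such a name, and 12 of these are pseudogenes or named as such and were left out. The remaining 86 rows hold 37 genes of complex I (NADH dehydrogenase), 4 of complex II (succinate dehydrogenase), 9 of complex III (cytochrome c reductase), 18 of complex IV (cytochrome c oxidase) and 18 of complex V (ATP synthase). Atp5o stands in 2 of these rows under different identifiers. Of the 86 rows, 79 had enough counts in enough libraries to be tested.

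Complexes I to IV carry electrons from NADH and succinate to oxygen and, apart from complex II, pump protons out of the matrix, and complex V uses the return of the protons to make ATP. Complex II is encoded by nuclear genes only, whereas each of the others also holds a few subunits encoded by mitochondrial DNA, so both genomes must be expressed for assembly. Astrocytes are known for a strong glycolysis, yet their fine processes hold mitochondria and respire.

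The mice carried 2 modified alleles, CD51-Flp and Rosa-CAG-FSF-tdTomato. A Flp recombinase made under control of CD51 (integrin alpha-v, gene Itgav) removes a stop signal there and so switches on the red reporter. Cells of the cortex and of the hippocampus were sorted by flow cytometry into those with both tdTomato and GFP, labelled CD51+ astrocytes, and those with GFP but without tdTomato, labelled CD51- astrocytes. What drives GFP, the age and sex of the mice and whether the replicates are separate animals are not given in the sources used here. A p-value thus reflects the variation among libraries within groups, estimated jointly over the 4 groups, and this variation may be technical. The 4 groups are cortex CD51+, cortex CD51-, hippocampus CD51+ and hippocampus CD51-, with 3 libraries each, and all share the same alleles. The library names carry G where the title reads CD51+ and GT where it reads CD51-. Should G and GT instead stand for the other class each, all differences between CD51+ and CD51- below would take the opposite sign.

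Total counts were 4351897 to 12847183 read pairs per library. Itgav itself did not separate the classes: its log2 fold change was 0.91 in cortex (edgeR adjusted p = 0.269) and -0.04 in hippocampus (adjusted p = 0.984). Mitochondrial genes took 36.5% to 71.1% of the counts in the 6 CD51+ libraries and 20.2% to 38.6% in the 6 CD51- libraries. The classes also differed in cell type markers. The 15 astrocyte markers summed to 54500 to 90830 CPM (the count relative to the library size after TMM scaling) in the CD51+ libraries and to 6176 to 18900 CPM in the CD51- libraries, and all 15 were higher in CD51+ in the test averaged over both regions. The 11 oligodendrocyte markers summed to 1254 to 4972 CPM in CD51+ against 6912 to 64020 CPM in CD51-, with 5 lower in CD51+. The 12 microglial markers summed to 205 to 1573 CPM in CD51+ against 5195 to 11230 CPM in CD51-, with 11 lower. The 10 neuronal markers summed to 499 to 836 CPM in CD51+ and 64.7 to 384 CPM in CD51-, without overlap. In the averaged test 1 of 8 tested, Map2, was higher in CD51+. The neuronal markers were split in direction: 5 averaged estimates were above 0 and 3 below, and in hippocampus 4 were above and 4 below. The 7 endothelial markers summed to 0.229 to 12.4 CPM in CD51+ and 2.79 to 34.4 CPM in CD51-, with Pecam1 lower in CD51+ among 3 tested and Cldn5 at 0 in all libraries. The part of these cell types in the results below was not tested. In sorted bulk samples, fewer cells of a type and less RNA per cell cannot be told apart.

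The respiratory genes differed widely in level among themselves. On the scale of CPM per kilobase of exon, averaged over the 4 groups, the median tested gene stood at 11.5 in complex I, 15.7 in complex II, 17.5 in complex III, 30.3 in complex IV and 13.96 in complex V. Cox6a1, the broadly expressed form of a regulatory subunit of cytochrome c oxidase, had the highest level at 485. It was followed by Cox8a, a small membrane subunit of the same complex, at 126 (per kb), and by Ndufa13, a complex I subunit also known as GRIM-19, at 112. Cox7b stood at 91.8 and Atp5a1, the alpha subunit of the catalytic F1 head of ATP synthase, at 74.8. The highest of complex III was Uqcrh, the hinge protein that binds cytochrome c1, at 67.7, and the highest of complex II was Sdha, the flavoprotein that oxidises succinate, at 42.5. The lowest tested gene of complex I was Ndufb7 at 1.18, and of all complexes Atp5s (coupling factor B), at 0.815, which is 595-fold below Cox6a1. RefSeq names Atp5s Dmac2l, and it is placed in complex V here by its Atp5 name only. Few genes made up much of the total: the 5 highest genes of a library held 31.0% to 52.3% of its summed respiratory CPM.

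**Figure D1:**
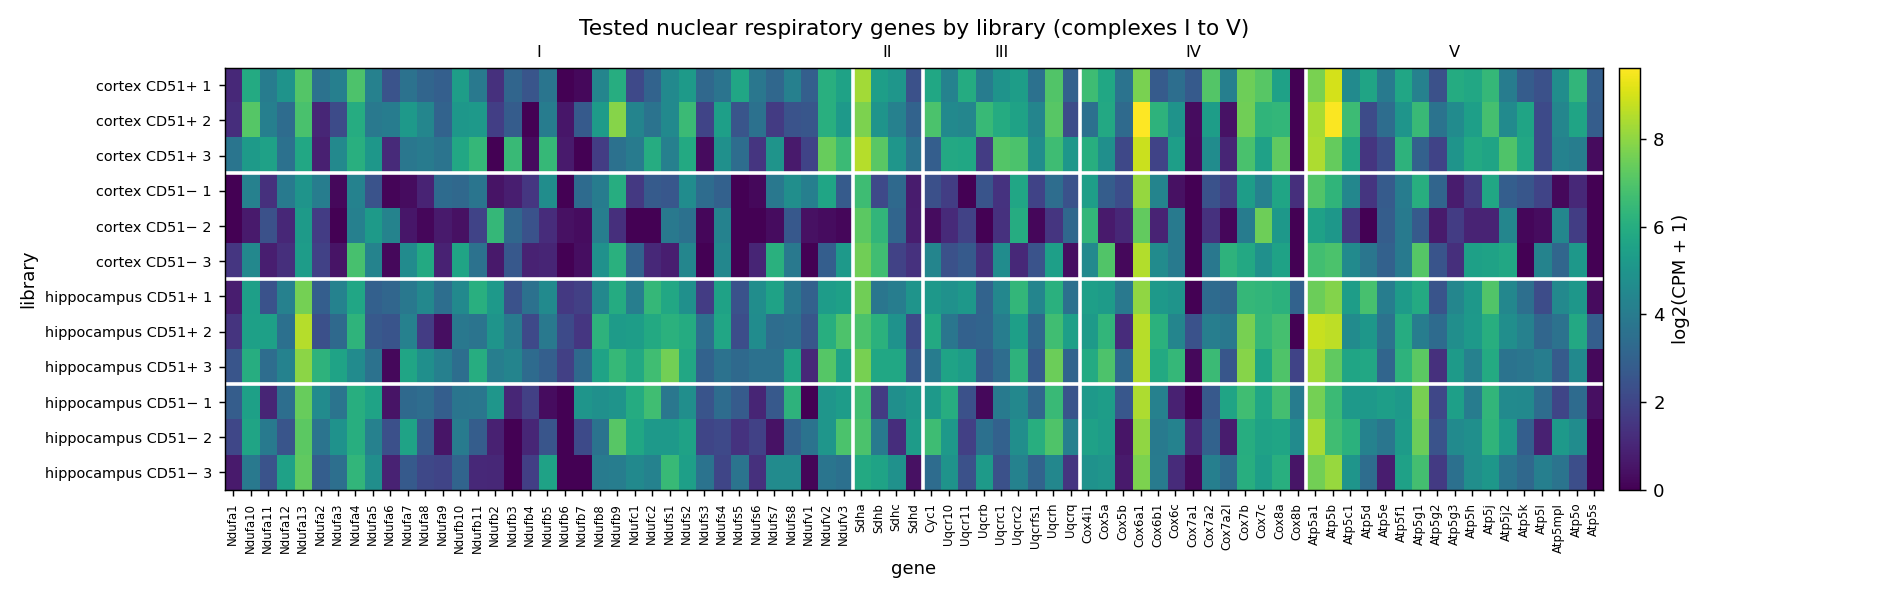
Heat map of the 79 tested genes (columns, by complex) in the 12 libraries (rows), coloured by log2(CPM + 1). Cox6a1, Atp5a1 and Atp5b stay bright across the libraries, and the 3 cortex CD51- libraries hold the most dark cells.

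Summed over the 86 rows, respiratory RNA was lowest in cortex CD51-. In cortex the sums were 3768, 4929 and 4150 CPM in the CD51+ libraries and 1463, 1243 and 2410 CPM in the CD51- libraries, or 4282 ± 592 against 1705 ± 620 CPM (SD, n = 3), a ratio of 2.51. In hippocampus they were 3216, 4120 and 4425 CPM against 2943, 3048 and 2262 CPM, or 3920 ± 629 against 2751 ± 427 CPM, a ratio of 1.43. In both regions every CD51+ library lay above every CD51- library. Since mitochondrial RNA took a different share of the libraries, the sum was also expressed as a share of the non-mitochondrial counts. It was then 0.643%, 0.754% and 0.551% against 0.262%, 0.191% and 0.380% in cortex, and 0.643%, 0.679% and 0.762% against 0.568%, 0.556% and 0.432% in hippocampus. The classes did not overlap on this scale either. No test is given for these sums, which a few abundant genes dominate.

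The complexes differed in the ratio between the classes. The ratio of mean summed CPM, CD51+ over CD51- in cortex, was 5.37 for complex III, 3.32 for complex V, 2.38 for complex I, 1.91 for complex II and 1.85 for complex IV. Only for complex II did the cortical libraries overlap (392, 268 and 557 CPM in CD51+ against 111, 234 and 292 CPM in CD51-). For complex III they lay far apart, at 362, 520 and 522 CPM against 81.3, 76.6 and 104 CPM. In hippocampus the same ratios were 1.28 for complex III, 1.22 for complex V, 1.53 for complex I, 1.65 for complex II and 1.58 for complex IV. There the libraries of complexes III, IV and V overlapped, with those of complex III at 304, 295 and 378 CPM in CD51+ against 245, 387 and 133 CPM in CD51-. The difference between regions in these ratios was not tested for the sums.

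**Figure D2:**
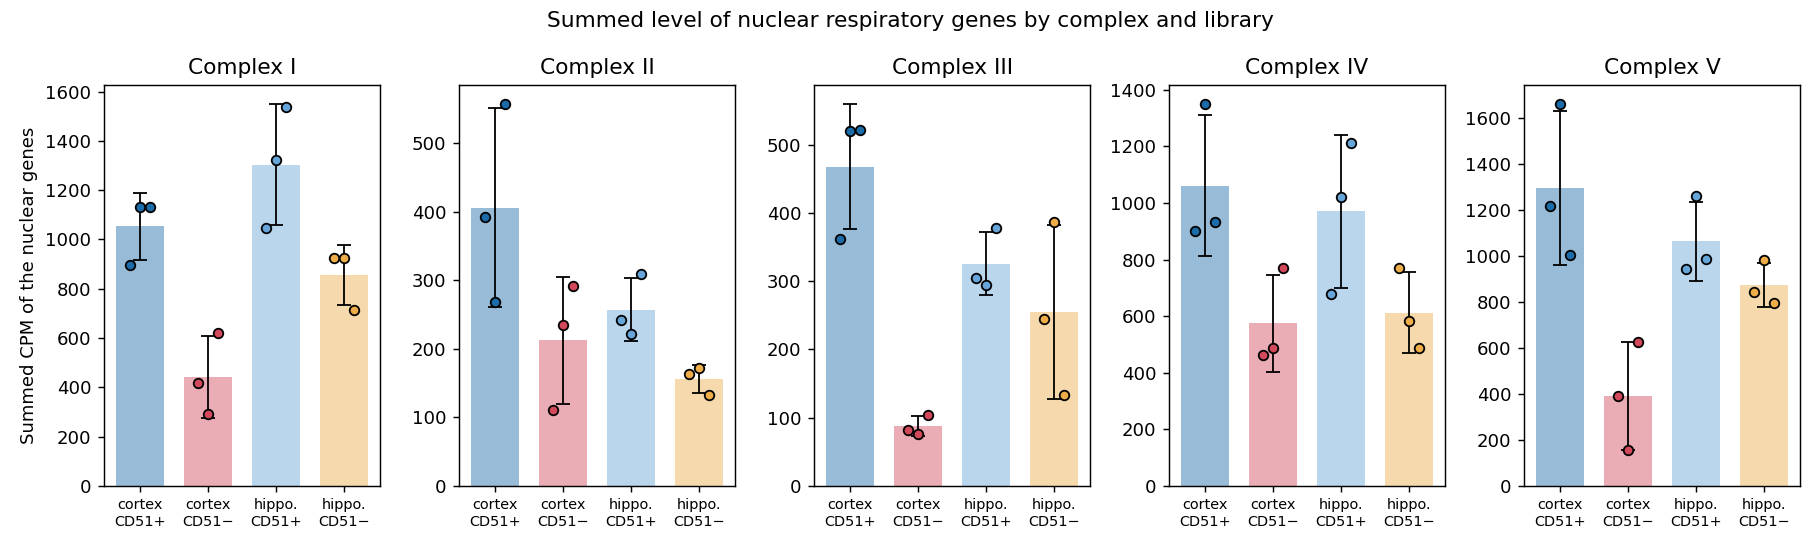
Summed CPM of the nuclear genes of complexes I to V in each group, each panel with its own vertical axis from 0. Points are libraries, bars the means and whiskers 1 SD (n = 3). The cortex CD51- bar is the lowest in complexes I, III, IV and V, and the 3 cortex CD51- points of complex III lie between 76.6 and 104 CPM.

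The first comparison asked how cortical cells labelled CD51+ differ from those labelled CD51-. With edgeR (quasi-likelihood, Benjamini-Hochberg over 12613 genes, threshold 0.05), 4 of the 79 tested respiratory genes rose and none fell. Of all genes tested 5.05% were called higher and 6.27% lower, so 4 of 79 is near the background. The 4 were Atp5b and Atp5g3 of complex V and Ndufs5 and Ndufa3 of complex I. At an unadjusted p under 0.05 there were 20 of 79, against 31.9% of all genes. DESeq2 called 17 higher and 1 lower (25.5% of all genes called in either direction) and limma-voom 10, all higher (17.2%). The estimates leaned upward: 66 of 79 log2 fold changes were above 0, with a median of 1.60, whereas the median over all genes tested was -0.03 and 48.5% were above 0. Setting the 4 genes with no count in a cortical class at their bound could not move the respiratory median of 1.60. Each bound lies on the same side of it as the fitted value, so this is no check of the lean. The libraries did not overlap for 29 of 79 genes, all higher in CD51+, against 15.1% of all genes higher and 16.6% lower. When a library is left out the filter passes more genes, 13959 to 14422, so each such fit was also run with the 12613 genes kept, a check added after seeing the data. Without CD51- replicate 2, in which many respiratory genes were near 0, the median was 1.46 and 0 genes were called, or 1 with the gene set kept. Without CD51+ replicate 1 the counts were 1 and 0, without CD51+ replicate 2 they were 1 and 3, and without CD51+ replicate 3 both were 2. Without any 1 of the hippocampal libraries, which share the estimate of spread, the count was 2, or 2 to 3 with the gene set kept.

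Atp5b encodes the beta subunit of ATP synthase, where ATP is made (ENSMUSG00000025393.12, chr10:128083273-128090391, plus strand, mm10). Its cortical level was 518, 759.5 and 164 CPM for the CD51+ class, compared with 77.6, 33.4 and 119 CPM for the CD51- class. The lowest CD51+ library was thus above the highest CD51- library, but the CD51+ libraries ranged widely. By edgeR this was a log2 fold change of 2.65 ± 0.73 (± SE throughout), with an adjusted p of 0.0224. Its call ended without CD51+ replicate 2 or CD51- replicate 1 or 2, and with the gene set kept also without CD51+ replicate 1.

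Ndufs5, an accessory subunit of the membrane arm of complex I (ENSMUSG00000028648.13, chr4:123712710-123718202, minus strand), had no count in any of the 3 cortex CD51- libraries. In CD51+ it stood at 50.7, 4.75 and 9.74 CPM. With 387 counts against 0 it was at least 187-fold higher, where 3 counts over the group serve as the limit that 0 counts allow (counting error only; edgeR adjusted p = 0.0171). In hippocampus the same gene was at 4.36, 3.89 and 8.88 CPM in CD51+ against 5.83, 1.67 and 11.95 CPM in CD51-, so the classes overlapped there. Its cortical call ended without CD51+ replicate 1, which held most of the counts, or without CD51- replicate 1, and without CD51- replicate 2 unless the gene set was kept.

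Atp5g3 is 1 of 3 genes for the same c subunit of the proton-driven rotor of ATP synthase (ENSMUSG00000018770.9, chr2:73908447-73911326, minus strand). It was at 59.3, 23.98 and 30.6 CPM in cortex CD51+ against 0.675, 2.28 and 1.46 CPM in CD51-, with no overlap (log2 fold change 4.68 ± 1.42, edgeR adjusted p = 0.0360). Ndufa3, a small accessory subunit of complex I (ENSMUSG00000035674.13, chr7:3617373-3620327, plus strand), was at 16.8, 3.59 and 22.1 CPM against 0.169, 0 and 0.438 CPM (6.06 ± 1.95, adjusted p = 0.0460). All 3 CD51+ libraries were above the CD51- libraries for both genes. With any 1 of the 12 libraries left out the estimates stayed at 4.21 to 5.14 for Atp5g3 and 5.51 to 7.03 for Ndufa3, but neither gene passed where the filter was run again. With the gene set kept Atp5g3 passed in 6 of the 12 fits, not without CD51+ replicate 1 or 3, any cortex CD51- library or hippocampus CD51- replicate 1. Ndufa3 passed in 1, that without CD51+ replicate 2.

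**Figure D3:**
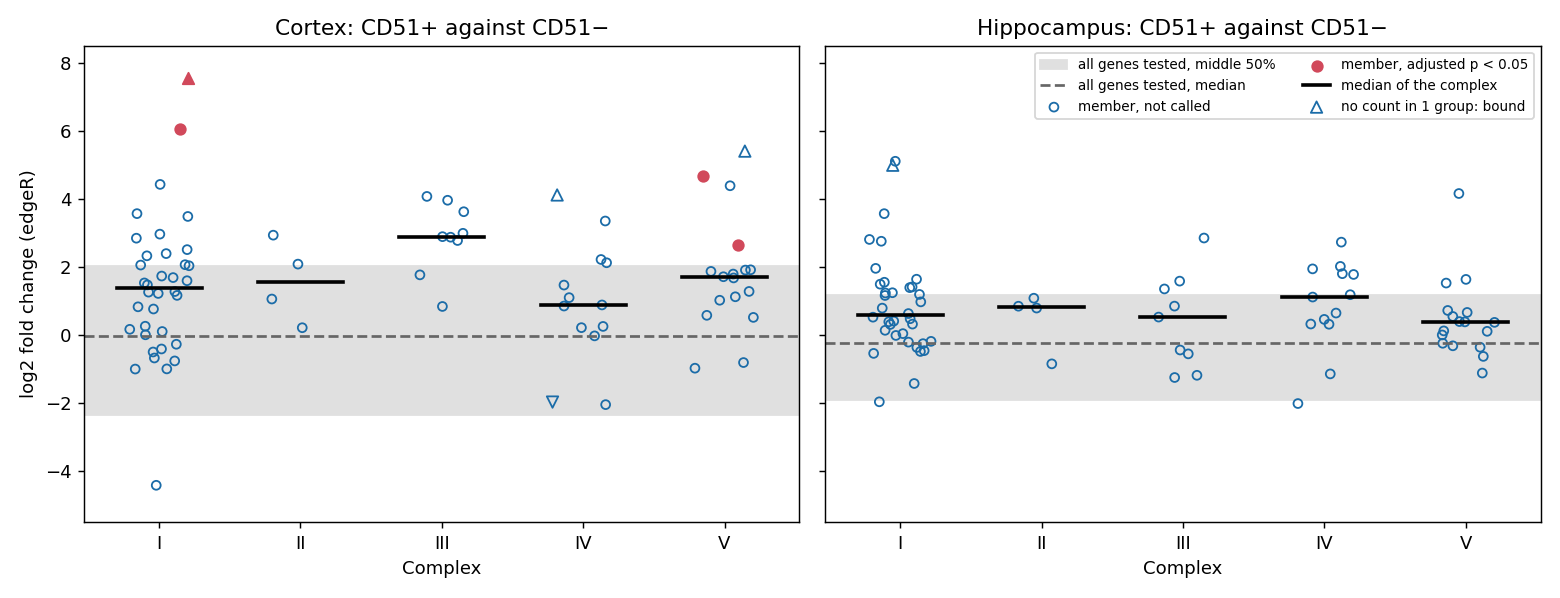
Log2 fold change of CD51+ against CD51- for each tested gene by complex, in cortex (left) and hippocampus (right). Circles are edgeR estimates, triangles the bounds of genes with no count in 1 class, filled red symbols the called genes, black lines the complex medians, and the dashed line and grey band the median and middle 50% of all genes tested. In cortex all 9 complex III genes lie above 0 and the complex III median is 2.89, while in hippocampus the 5 medians lie between 0.37 and 1.12 with no gene called.

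By complex, the cortical medians of the log2 fold change were 1.38 in complex I, 1.57 in complex II, 2.89 in complex III, 0.89 in complex IV and 1.72 in complex V. In complex III all 9 estimates were above 0, and 5 of the 9 had libraries that did not overlap. None of the 9 passed the adjusted threshold, and 5 had an unadjusted p under 0.05. Uqcrh was at 129, 139.9 and 99.4 CPM in CD51+ against 9.79, 1.80 and 42.0 CPM in CD51- (log2 fold change 2.78 ± 0.98, adjusted p = 0.0641). Uqcr10, a small subunit of the same complex, was at 18.3, 22.7 and 55.6 CPM against 2.36, 1.20 and 4.23 CPM (3.63 ± 1.30, adjusted p = 0.0674). Both separated the classes in every library. The electron-carrying subunits were cytochrome c1 (Cyc1), with a log2 fold change of 2.88, and the Rieske iron-sulphur protein (Uqcrfs1), with 2.89. Cyc1 overlapped, at 52.1, 119.5 and 6.29 CPM against 4.13, 0.240 and 19.8 CPM.

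In complex I the 7 nuclear core subunits, which hold the flavin and the iron-sulphur clusters, had a cortical median of 0.26 with 4 of 7 estimates above 0. The 29 tested accessory subunits, which surround the core, had a median of 1.48 with 24 above 0. The difference between core and accessory subunits was not tested. Ndufb2 was the only complex I gene with an unadjusted p under 0.05 and a negative estimate, and the 1 gene that DESeq2 called lower. It was at 1.51, 2.44 and 0 CPM in CD51+ against 0.422, 85.0 and 0.584 CPM in CD51-, so a single library, CD51- replicate 2, held nearly all of its counts (log2 fold change -4.41, edgeR unadjusted p = 0.0474).

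In complex II, Sdha (ENSMUSG00000021577.14, chr13:74322254-74350280, minus strand) was at 314, 212 and 372 CPM in cortex CD51+ against 97.8, 146 and 187 CPM in CD51-. These did not overlap, yet the log2 fold change of 1.06 ± 0.62 did not pass (adjusted p = 0.252). Sdhb, the iron-sulphur subunit, overlapped, at 41.3, 30.3 and 142 CPM against 3.38, 80.3 and 100.1 CPM. The membrane anchors Sdhc and Sdhd had log2 fold changes of 2.09 ± 1.38 and 2.94 ± 1.83, with no overlap and no call.

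In complex IV no gene was called in cortex. The most abundant one, Cox6a1 (ENSMUSG00000041697.8, chr5:115345642-115348981, minus strand), was at 208, 789 and 458 CPM in CD51+ against 277, 158 and 369 CPM in CD51-. The libraries overlapped and the log2 fold change was 0.85 ± 0.59 (adjusted p = 0.339). Cox4i1, the broadly expressed form of the largest nuclear subunit, was at 97.6, 10.8 and 64.5 CPM against 41.1, 81.5 and 22.2 CPM (0.26 ± 0.97). Cox7b, a small subunit encoded on the X chromosome, came closest to a call, at 179.9, 185 and 115 CPM against 39.8, 15.6 and 54.4 CPM (2.13 ± 0.74, adjusted p = 0.0618).

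In complex V the 5 subunits of the F1 head all had estimates above 0, with a median of 1.87. Atp5a1, the other large subunit of the head beside Atp5b, was at 207, 329.9 and 348 CPM in CD51+ against 128, 44.7 and 104 CPM in CD51-, without overlap (1.68 ± 0.63, adjusted p = 0.0764). Of the 8 tested genes of the stalk and membrane part, 7 had estimates above 0. Atp5l and Atp5g1 were the 2 complex V genes with negative estimates, -0.97 and -0.81.

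Promoters are shown for some of the genes that were called or that had the highest levels. The respiratory genes lie scattered over the genome and are known to share binding sites for the transcription factors NRF1 and GABP (also called NRF2). The latter is a member of the ETS family. RefSeq entries on build GRCm38.p6 matched 68 of the 85 symbols. In the 250 bases before each start, the NRF1 core (GCGCA and GCGC with any 1 base between them) was found on either strand in 13 of 68 genes (19.1%), against 4.23% of the 27025 genes of the table. The ETS core CCGGAAG was found in 12 of 68 (17.6%), against 7.83%. The CCAAT box was found in 44.1% against 37.5%, and the TATA box (TATAAA) in 8.82% against 14.3%. Each window below runs 5′ to 3′ in the direction of the gene and ends just before the start, and capitals mark the matches. Ndufs5 and Ndufs6 have 1 NRF1 match each, at 98 and 16 bases before the start. Sdha has 3 NRF1 matches, Cox6a1 has 2 NRF1 matches and 1 ETS match, Uqcr11 has 1 ETS match, and Atp5b has neither. For each of these genes the RefSeq start lies inside the gene coordinates given in this text. The Ndufs6 match, the Sdha match nearest the start and the Cox6a1 ETS match therefore fall inside those gene coordinates.
Ndufs5 (chr4:123718187-123718436, minus strand): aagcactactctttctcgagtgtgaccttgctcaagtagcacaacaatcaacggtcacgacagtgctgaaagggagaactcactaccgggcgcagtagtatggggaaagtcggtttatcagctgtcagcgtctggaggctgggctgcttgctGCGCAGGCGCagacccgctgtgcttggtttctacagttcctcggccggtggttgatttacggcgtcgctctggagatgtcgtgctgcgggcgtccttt
Ndufs6 (chr13:73328483-73328732, minus strand): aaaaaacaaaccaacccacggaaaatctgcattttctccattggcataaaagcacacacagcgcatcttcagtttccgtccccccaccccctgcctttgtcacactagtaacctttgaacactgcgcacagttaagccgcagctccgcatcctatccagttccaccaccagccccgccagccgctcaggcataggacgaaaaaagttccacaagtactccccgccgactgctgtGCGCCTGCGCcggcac
Sdha (chr13:74350241-74350490, minus strand): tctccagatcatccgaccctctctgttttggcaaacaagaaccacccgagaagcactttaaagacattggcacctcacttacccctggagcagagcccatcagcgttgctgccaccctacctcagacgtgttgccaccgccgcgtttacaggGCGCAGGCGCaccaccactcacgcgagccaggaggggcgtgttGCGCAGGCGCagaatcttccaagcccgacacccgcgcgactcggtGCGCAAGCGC
Cox6a1 (chr5:115348959-115349208, minus strand): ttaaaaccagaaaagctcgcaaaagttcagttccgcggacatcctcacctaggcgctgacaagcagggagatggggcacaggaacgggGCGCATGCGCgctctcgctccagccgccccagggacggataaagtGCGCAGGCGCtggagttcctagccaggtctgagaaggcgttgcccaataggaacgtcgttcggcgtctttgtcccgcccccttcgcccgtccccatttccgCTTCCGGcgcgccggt
Uqcr11 (chr10:80406822-80407071, minus strand): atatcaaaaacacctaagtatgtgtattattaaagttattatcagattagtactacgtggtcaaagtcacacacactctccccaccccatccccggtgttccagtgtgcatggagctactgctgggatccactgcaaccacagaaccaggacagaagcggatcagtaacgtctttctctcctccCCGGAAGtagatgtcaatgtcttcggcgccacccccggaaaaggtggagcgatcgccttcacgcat
Atp5b (chr10:128083057-128083306, plus strand): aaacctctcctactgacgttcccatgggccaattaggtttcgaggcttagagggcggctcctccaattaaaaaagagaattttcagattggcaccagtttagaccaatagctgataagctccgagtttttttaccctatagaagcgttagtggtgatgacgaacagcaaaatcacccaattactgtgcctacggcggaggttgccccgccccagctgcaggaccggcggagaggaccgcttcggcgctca
Matches thus stand both in genes that were called, such as Ndufs5, and in genes that were not, such as Cox6a1 and Sdha, and the called Atp5b has none in this window. Of the windows not printed, those of the called Atp5g3, Atp5s, Cox7a2, Cox7b, Ndufa3 and Ndufb3 have no NRF1 or ETS match either. The same holds for the abundant Cox8a, Ndufa13, Sdhb and Uqcr10. The called Ndufb6 and the abundant Uqcrh have 1 ETS match each. A match describes these letters only, not the binding of a factor.

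In the hippocampus the same question gave no call by edgeR among the 79 tested genes, where 3.31% of all genes were called (0.618% higher and 2.7% lower). At an unadjusted p under 0.05 there were 3 (19.1% of all genes). DESeq2 called Ndufb11, Ndufb3 and Ndufs4 (3 genes, all higher, against 11.6% of all genes called) and limma-voom Ndufb3 and Ndufb6 (2 genes, both higher, against 7.02%). The median log2 fold change was 0.53 with 57 of 79 estimates above 0, against a median of -0.22 over all genes tested. Relative to all genes the respiratory median was 0.75 higher. With upper-quartile in place of TMM scaling the median of all genes moved to 0.01 and that of the respiratory genes to 0.75. The libraries did not overlap for 12 genes higher in CD51+ and for 1 lower, against 10.5% and 16.7% of all genes.

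The 12 included Ndufa13 (ENSMUSG00000036199.9, chr8:69894180-69902558, minus strand), the most abundant complex I gene per kb. It was at 192.5, 372 and 247 CPM in hippocampus CD51+ against 168, 145 and 156 CPM in CD51-, and the log2 fold change of 0.79 ± 0.65 did not pass (adjusted p = 0.593). About 30.0% of its exon bases are shared with Tssk6 on the opposite strand, whose reads an unstranded count cannot separate. Ndufb3, a small accessory subunit of complex I, was at 4.36, 14.9 and 19.4 CPM against 1.07, 0 and 0 CPM (5.11 ± 2.11, adjusted p = 0.178). The CD51- libraries of hippocampus thus held 13 counts of Ndufb3 in all, every one in replicate 1. Ndufa5, a subunit of the matrix arm, was the gene whose libraries did not overlap in the other direction, at 6.65, 5.37 and 11.2 CPM in CD51+ against 46.8, 17.6 and 26.2 CPM in CD51- (log2 fold change -1.96, unadjusted p = 0.162). In cortex its classes overlapped, with an estimate of 0.11.

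Both regions together gave the same sign for most genes: 49 of 79 estimates were above 0 in cortex and in hippocampus, 5 were below 0 in both, 17 were above 0 in cortex only and 8 in hippocampus only. In 5 genes the libraries were higher in CD51+ without overlap in each region: Ndufa13, Ndufs6, Ndufv2, Sdha and Uqcr11. This is 5 of 79, against 4.69% of all genes, and none was lower in both regions, against 8.48%, so the count of higher genes is near the background. In complex II Sdha, beside its cortical values above, was at 183, 118 and 198 CPM against 102, 118 and 57.0 CPM in hippocampus, where 1 library of each class nearly met (118.3 against 117.9 CPM).

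The test averaged over both regions asked which genes differ between the classes across regions. It called 9 of 79 higher and none lower, where 8.87% of all genes were called higher and 13.9% lower. The 9 are thus near the background. DESeq2 called 19 (29.4% of all genes) and limma-voom 16 (24.3%), all higher, and the count at an unadjusted p under 0.05 was 20 (35.2%). The median log2 fold change was 1.05 with 69 of 79 estimates above 0, against -0.14 over all genes tested, which upper-quartile scaling moved to 0.04. With 1 library left out the count ranged from 1 to 12, or from 2 to 13 with the gene set kept. Where the filter was run again it was 1 without hippocampus CD51- replicate 2, 2 without cortex CD51+ replicate 1, cortex CD51- replicate 2 or hippocampus CD51- replicate 3, 3 without cortex CD51+ replicate 2 or hippocampus CD51+ replicate 2 or 3, and 5 without cortex CD51+ replicate 3 or hippocampus CD51- replicate 1. With the gene set kept it was 2 without hippocampus CD51- replicate 2 or 3, 3 without hippocampus CD51+ replicate 3, and 4 without cortex CD51- replicate 2 or hippocampus CD51+ replicate 2. Complex I gave 4 of the 9, namely Ndufs5, Ndufs6, Ndufb3 and Ndufb6, complex III gave Uqcr11, complex IV gave Cox7a2 and Cox7b, and complex V gave Atp5b and Atp5s. For 1 of the 79 genes, Uqcr11, every CD51+ library of either region lay above every CD51- library of either region, against 3.35% of all genes, and none showed the reverse, against 6.98%.

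Uqcr11, the smallest subunit of complex III (ENSMUSG00000020163.12, chr10:80402997-80406830, minus strand), was at 59.45, 20.3 and 52.2 CPM in cortex CD51+ against 0, 2.76 and 5.69 CPM in CD51-. In hippocampus it was at 33.7, 6.84 and 38.9 CPM against 4.27, 2.51 and 4.17 CPM. The averaged log2 fold change was 3.41 ± 1.16 (edgeR adjusted p = 0.0360). All 6 CD51+ libraries were above the 6 CD51- libraries. The call held in 3 of the 12 fits with 1 library left out, those without cortex CD51+ replicate 2, cortex CD51- replicate 3 or hippocampus CD51+ replicate 2, and in 4 with the gene set kept, where the fit without cortex CD51- replicate 1 joined them.

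Ndufs6, an accessory subunit that carries zinc (ENSMUSG00000021606.8, chr13:73319838-73328542, minus strand), was at 13.1, 11.2 and 1.83 CPM against 0.169, 0 and 1.02 CPM in cortex. In hippocampus it was at 25.5, 24.8 and 11.1 CPM against 0.985, 2.60 and 1.54 CPM, so the classes were apart in each region (4.0 ± 1.45, adjusted p = 0.0482). Of the fits with 1 library left out its call held only without cortex CD51- replicate 3, and with the gene set kept also without cortex CD51+ replicate 3. Ndufb3 had an averaged log2 fold change of 3.98 ± 1.41 (adjusted p = 0.0448), and its cortical libraries, at 7.73, 5.90 and 90.3 CPM against 0.759, 8.39 and 5.25 CPM, overlapped. On either gene set it was still called in 4 of the 12 fits with a library left out, those without cortex CD51+ replicate 1 or 2 or replicate 1 of either hippocampal class.

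Ndufb6 rests on very few reads: 57 counts in the 6 CD51+ libraries and 3 in the 6 CD51- libraries. The ratio is 31.8 with a counting interval of 10.4 to 159 (95%; edgeR adjusted p = 0.0368). Most of these counts were hippocampal, with 50 in CD51+ against 0 in CD51-. In cortex Ndufb6 had 7 counts in CD51+ against 3 in CD51-, a ratio of 3.38 with an interval of 0.771 to 20.25. Of its exon bases 39.0% are shared with Smim27 on the opposite strand. Its call ended with any library left out, though with the gene set kept it held without cortex CD51+ replicate 1 or cortex CD51- replicate 2. Atp5s (ENSMUSG00000054894.6) had 88 counts in cortex CD51+, none in cortex CD51-, 49 in hippocampus CD51+ and 4 in hippocampus CD51-. This puts it at least 42.5-fold higher in cortex (counting error only), where it was not called. The averaged test called it (edgeR adjusted p = 0.0238). In CPM it was at 6.55, 6.16 and 0.203 in cortex CD51+ and 0.229, 6.31 and 0.168 in hippocampus CD51+, so 3 libraries carried nearly all of the reads. It stayed called without cortex CD51+ replicate 3, hippocampus CD51+ replicate 1 or 3, or hippocampus CD51- replicate 1, and in none of the other 8 fits of that kind. With the gene set kept it passed in 7 of 12, not without cortex CD51- replicate 1 or 2, hippocampus CD51+ replicate 2 or hippocampus CD51- replicate 2 or 3.

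Cox7b (ENSMUSG00000031231.4, chrX:106015700-106022450, plus strand) added to its cortical values 84.2, 201 and 235 CPM in hippocampus CD51+ against 100.5, 63.1 and 64.7 CPM in CD51-. The averaged log2 fold change was 1.66 ± 0.52 (edgeR adjusted p = 0.0237). The hippocampal classes overlapped through CD51+ replicate 1. Its call held in 5 of the 12 fits with a library left out and ended without cortex CD51+ replicate 1 or 2, cortex CD51- replicate 2, hippocampus CD51+ replicate 2 or 3, or hippocampus CD51- replicate 2 or 3. With the gene set kept it held in 8, ending in the last 4 of these. Cox7a2, the form of subunit 7a found in most tissues, was at 131, 40.1 and 24.96 CPM against 4.30, 1.56 and 13.3 CPM in cortex and at 9.41, 16.5 and 93.1 CPM against 5.42, 7.15 and 16.8 CPM in hippocampus (2.69 ± 0.93, adjusted p = 0.0396). The cortical classes were apart, and the hippocampal ones overlapped. Its call held without cortex CD51+ replicate 3, cortex CD51- replicate 3 or hippocampus CD51+ replicate 1 or 2, and with the gene set kept also without cortex CD51+ replicate 2.

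Atp5b in hippocampus was at 229, 407 and 154 CPM in CD51+ against 92.2, 102 and 284 CPM in CD51-, with overlap. Its averaged log2 fold change was 1.69 ± 0.50 (adjusted p = 0.0190), and the call ended without cortex CD51+ replicate 2, hippocampus CD51+ replicate 2 or, unless the gene set was kept, hippocampus CD51- replicate 2. Ndufs5 passed with adjusted p = 0.0200, though its hippocampal estimate was -0.18 ± 1.79, and its call ended without cortex CD51+ replicate 1 and in no other fit of that kind, on either gene set.

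**Figure D4:**
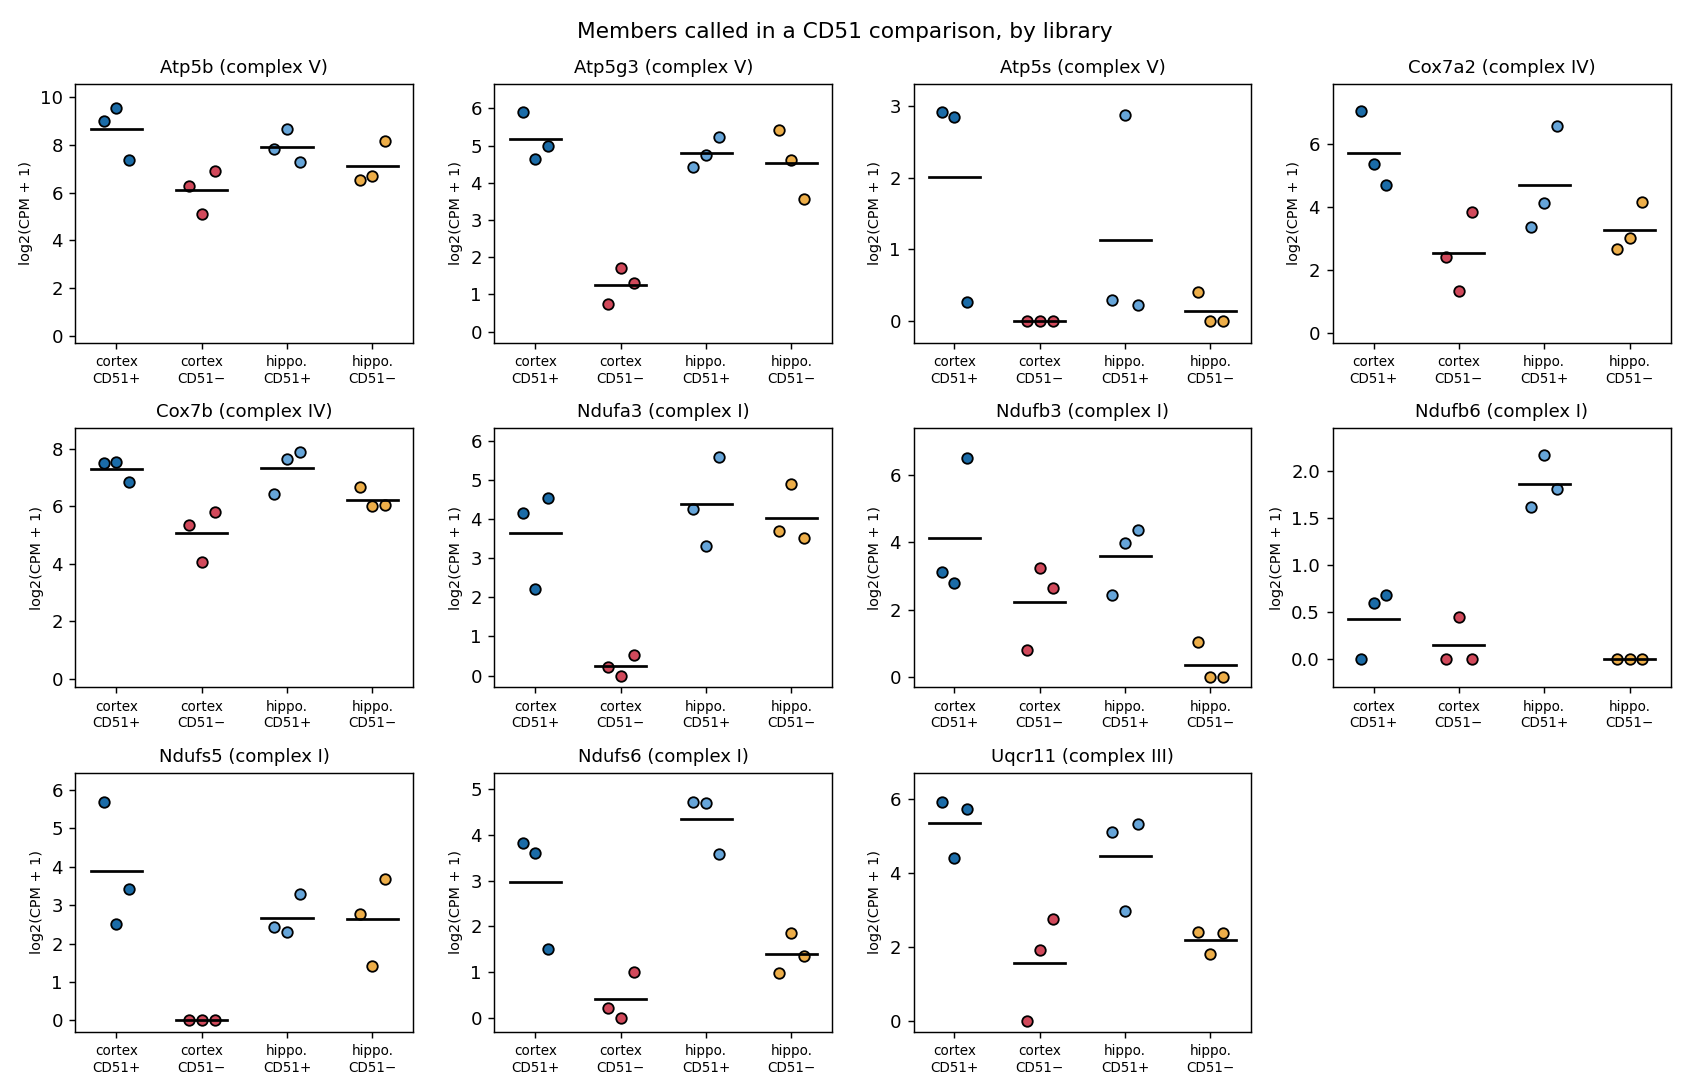
Level of the 11 genes called in the cortical or the averaged comparison, as log2(CPM + 1), in each of the 12 libraries. Points are libraries and lines the mean of the 3 log values. Ndufs5 and Atp5s are at 0 in all cortex CD51- libraries, and Uqcr11 is the gene whose 6 CD51+ libraries all exceed its 6 CD51- libraries.

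The difference between the regions, hippocampus against cortex averaged over the classes, gave no call in edgeR among the 79 genes, where 0.19% of all genes were called (0.159% higher and 0.0317% lower). At an unadjusted p under 0.05 there were 9 (15.1% of all genes). DESeq2 called 6, all higher in hippocampus (Cox8b, Ndufa13, Ndufa3, Ndufc1, Ndufc2 and Ndufs1), against 5.73% of all genes called, and limma-voom 0, against 0.42%. The median was 0.49 against 0.16 over all genes. Ndufa13 had a log2 fold change of 1.79 ± 0.47 (adjusted p = 0.0844), with cortical values of 131, 114 and 53.4 CPM in CD51+ against 30.5, 37.4 and 39.2 CPM in CD51-. All 6 hippocampal libraries, at 144.6 CPM or more, were above the 6 cortical ones, a pattern that 0.793% of all genes showed, with the reverse in 0.0872% of all genes and in none of the 79. Markers of ependyma and choroid plexus also differed between the regions, with sums of 25.6 to 437 CPM in cortex and 456 to 5522 CPM in hippocampus, and 2 of 5 tested were higher in hippocampus. Their part in these values was not tested.

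The interaction, which tests whether the CD51 difference is the same in both regions, also gave no call in edgeR among the 79, and 0% of all genes were called. The count at an unadjusted p under 0.05 was 5 (12.6% of all genes). DESeq2 called 4, all with a smaller difference in hippocampus (Atp5g3, Ndufa3, Ndufs5 and Uqcr10), against 4.14% of all genes called, and limma-voom 0. The estimate was below 0, a smaller difference in hippocampus, for 54 of 79 genes, with a median of -0.86 against -0.23 over all genes. By complex, the median interaction was -2.25 in complex III and 0.07 in complex IV. For Ndufs5, which had no count in cortex CD51-, the interaction had an unadjusted p of 0.00234 (edgeR adjusted p = 0.164).

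Some subunits are encoded by several genes, of which others are known from muscle, lung or testis. For the c subunit of ATP synthase, all 3 genes give the same mature protein. In CPM per kb, Atp5g3 took 81.6%, 30.0% and 81.9% of the 3-gene total in cortex CD51+ and 1.72%, 41.0% and 2.18% in cortex CD51-. In hippocampus it took 39.2%, 57.6% and 35.2% in CD51+ and 31.1%, 22.1% and 17.7% in CD51-. Atp5g1 took 10.9%, 50.9% and 8.19% in cortex CD51+ and 72.5%, 44.99% and 88.8% in cortex CD51-, and in hippocampus 49.5%, 15.8% and 63.0% in CD51+ and 65.9%, 72.5% and 77.9% in CD51-. Atp5g2 took the rest and exceeded Atp5g1 in 2 libraries, cortex CD51+ replicate 3 and hippocampus CD51+ replicate 2. The Atp5g3 shares overlapped between the cortical classes through CD51- replicate 2 and CD51+ replicate 2. The hippocampal Atp5g3 shares did not overlap. Atp5g1 itself was at 17.8, 91.6 and 6.90 CPM in cortex CD51+ against 64.0, 5.63 and 134 CPM in CD51-, and its log2 fold changes of -0.81 ± 1.02 in cortex and -1.12 ± 1.03 in hippocampus did not pass.

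Of the 7 complex IV genes whose expression is known mainly from such tissues, 5 did not pass the filter and were not tested. Cox6a2 and Cox8c had no count in any library, Cox6b2 had 1 count in all, and Cox7b2 had 9 counts in a single library of hippocampus CD51+. Cox4i2, the lung form of subunit 4, had 189 counts, all in hippocampus CD51- replicates 2 and 3. The tested ones were Cox7a1, the heart and muscle form of subunit 7a, and Cox8b, a muscle form of subunit 8. Cox7a1 had 36 counts in cortex CD51+, nearly all in replicate 1, and 0 in cortex CD51-. The 7 genes together were at 5.54, 0.257 and 0.203 CPM in cortex CD51+. Cox8b had no count in cortex CD51+, 17 in cortex CD51-, 48 in hippocampus CD51+ and 454 in hippocampus CD51-. Neither passed in any comparison by edgeR. The broadly expressed partners were far higher, with mean levels of 43.0 to 102 CPM per group for Cox8a and 268 to 485 CPM for Cox6a1. In complex I, Ndufa4l2, a relative of Ndufa4 known from hypoxia, had no count in any library, whereas Ndufa4, placed here by its name though now counted with complex IV, was at 17.1 to 123 CPM.

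Single respiratory genes varied between replicates about as much as other genes. Among genes with a group mean of at least 10 CPM, the median coefficient of variation was 63.45% in cortex CD51+ (75.98% for all genes tested), 84.1% in cortex CD51- (82.3%), 51.6% in hippocampus CD51+ (66.8%) and 60.9% in hippocampus CD51- (65.0%). Of the genes that reached 50 CPM in at least 1 library of a group, 6 of 19 fell below 1 CPM in another library of the same group in cortex CD51- (31.6%, against 12.3% of all genes tested). In the other 3 groups none of 41, 36 or 22 did (6.98%, 4.79% and 5.72% of all genes). For example, Uqcrc2, a core protein of complex III, was at 51.5, 60.6 and 1.17 CPM in cortex CD51-, and Atp5j at 52.9, 0.959 and 45.7 CPM. The share of the 79 genes under 1 CPM was 3.80%, 6.33% and 12.7% in cortex CD51+, and 21.5%, 43.0% and 22.8% in cortex CD51-. In hippocampus it was 3.80%, 2.53% and 3.80% in CD51+ and 12.7%, 11.4% and 15.2% in CD51-. Cortex CD51- replicate 2 stood apart: its median respiratory gene was at 1.56 CPM, while the other 11 libraries had medians of 5.74 to 26.6 CPM. Its median over all genes tested, 3.48 CPM, was also the lowest of the 12 libraries, the others being at 4.26 to 9.03 CPM.

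**Figure D5:**
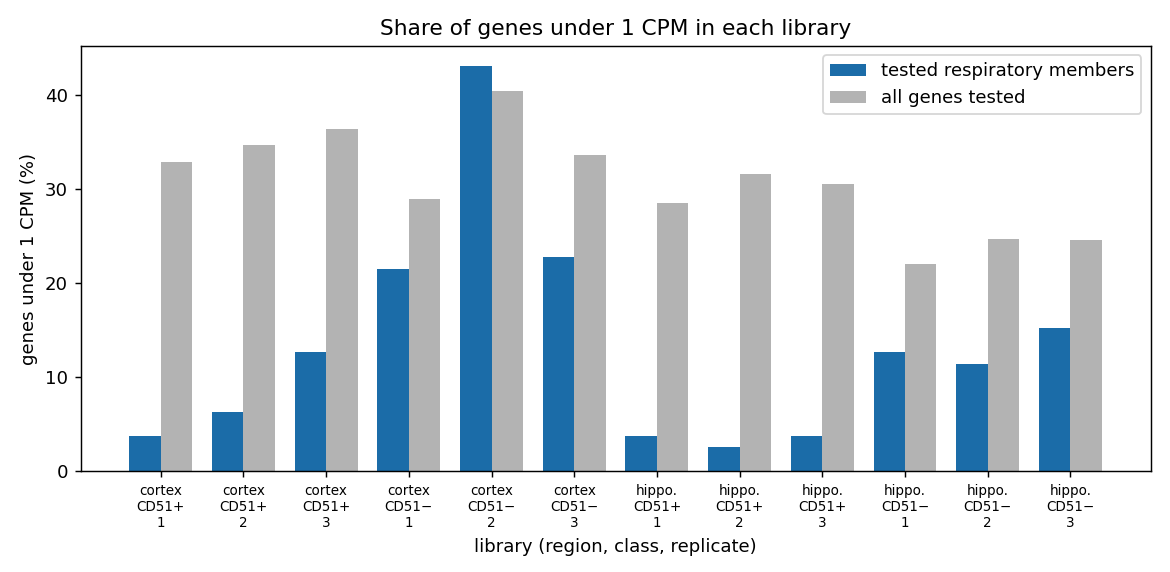
Share of genes under 1 CPM in each library, for the 79 tested respiratory genes (blue) and all 12613 genes tested (grey). The respiratory share exceeds that of all genes in 1 library, cortex CD51- replicate 2 (43.0% against 40.4%), and is 2.53% to 3.80% in hippocampus CD51+.

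Other genes of the same pathway were followed from lists chosen with earlier results of these data known. Of the 13 mitochondrially encoded respiratory mRNAs, 2 rose in cortex, 6 in hippocampus and 9 in the average (against 5.05%, 0.618% and 8.87% of all genes), none fell, and the medians were 0.96, 1.70 and 1.26. mt-Nd5, a proton-pumping subunit of complex I, was at 50550, 97250 and 82790 CPM against 25130, 27610 and 48710 CPM in cortex (log2 fold change 1.19, adjusted p = 0.0192). It was at 65200, 90990 and 120300 CPM against 27300, 31660 and 18890 CPM in hippocampus (1.83, adjusted p = 0.00172). In hippocampus 6 mitochondrially encoded subunits thus passed and no nuclear one did. The interaction estimates of the 13 were all above 0, a larger difference in hippocampus, with a median of 0.72, though none passed (2 at an unadjusted p under 0.05). Whether nuclear and mitochondrial genes differed from each other was not tested.

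The counts of the lists that follow are to be read against the same shares of all genes called higher. Of the 17 genes of the citric acid cycle and pyruvate dehydrogenase, 2 rose in cortex, none passed in hippocampus (2 at an unadjusted p under 0.05, against 19.1% of all genes) and 4 rose in the average, with medians of 1.99, 1.402 and 1.46. Citrate synthase (Cs) was at 509, 597 and 469 CPM in cortex CD51+ against 114.5, 21.1 and 43.0 CPM in CD51- (log2 fold change 3.14, adjusted p = 0.004005). Its 3 cortical CD51+ libraries were all above the 3 CD51- libraries. Of 6 tested carriers and porins, Slc25a4, an adenine nucleotide translocase (1.97, adjusted p = 0.0435), and Vdac1, the main outer membrane pore (2.44, adjusted p = 0.0499), rose in cortex. Of 39 tested genes on a list of assembly factors and Ndufab1 none passed in cortex (4 at an unadjusted p under 0.05, against 31.9% of all genes). In the average Ndufaf4 and Sco1 of this list rose. Of 9 tested genes of supercomplexes and cristae none passed in cortex, hippocampus or the average (1, 0 and 0 at an unadjusted p under 0.05), with medians of 1.29, -0.28 and 0.56, and in hippocampus 7 of the 9 estimates were below 0. Among 19 carriers of electrons and other quinone-linked enzymes, Prodh rose in cortex and Gpd2 and Prodh in the average. Of 11 tested regulators of respiratory transcription none passed in either region alone. Their medians were -1.46 in cortex, -0.46 in hippocampus and -1.27 in the average, where 8 of 11 estimates were below 0. In the average Ppargc1a, the coactivator known for mitochondrial biogenesis, rose (2.74, edgeR adjusted p = 0.0195). Gabpb1 and Gabpb2, partners of the ETS factor GABPA, fell (against 13.9% of all genes called lower). Nrf1 itself overlapped between the classes in both regions, with log2 fold changes of 1.19 in cortex and -1.20 in hippocampus.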

How the data were processed

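RNA of 12 libraries of sorted cells (4 groups, 3 libraries each) was compared. Libraries were made from 10 ng of RNA and read in pairs of 150 bases, per the labels' protocols. The deposited values are raw counts per gene: per the file headers, featureCounts 2.0.4 counted read pairs over GENCODE vM25 exons, unstranded, with primary alignments only, so reads of overlapping genes on opposite strands, or shared with pseudogene copies, cannot be assigned with certainty. Per the submitters' processing notes, STAR, mm10 and DESeq2 1.40.2 were used. Symbols were found for 55141 of 55401 identifiers in a GENCODE vM21 table. The gene length used per kb is the exon length of the deposited table.

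The pseudogenes left out were 8 names with -ps and 4 others annotated as processed pseudogenes. Genes were kept with filterByExpr by group (minimum count 10, minimum total 15; 12613 genes) and tested by quasi-likelihood in edgeR 4.0.16 (R 4.3.3; TMM factors, all 12 libraries in 1 fit of 4 groups) in 5 contrasts, adjusted over all genes at 0.05. The SE was taken as the size of a log2 fold change over the root of its F statistic. The biological coefficient of variation was 1.28. A group with no count was set to 3 counts for a bound, and intervals are 95%. Intervals and bounds cover counting error only. The test was tested on simulated data, where the estimates followed the simulated sizes, few changed genes passed in a single region, and false calls exceeded the nominal share in all contrasts but cortex and the average. Alternatives were DESeq2 1.42.0, limma-voom (limma 3.58.1), other scalings and filters, mitochondrial genes left out, replicate blocks, single regions and each library left out, the last with the filter run again and, added after seeing the data, with the gene set kept.

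Members and lists were chosen with earlier results of these data known. The genes named are those called in any contrast, the 2 with the smallest p per complex and CD51 contrast, paralogs of 1 subunit, the 2 highest per kb in each complex and those not tested. Ndufa5, Ndufa11, Ndufb2, Ndufb7, Ndufb11, Ndufc1, Ndufc2, Ndufs1, Ndufs4, Ndufv2, Atp5j, Atp5l, Cyc1, Uqcrfs1 and Nrf1 were added after their values were seen. Some called genes of the pathway lists are not named here. Plots come from matplotlib 3.10.9 under Python 3.11.15.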

Additional observations from a re-analysis of the deposited data

How the results depend on the processing

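Counts of called respiratory genes depended on the method, while the directions of called genes were kept in the alternatives run. In cortex, where edgeR called 4, DESeq2 called 18, limma-voom 10, and no filter, the replicate block and the fit on the cortical libraries alone 2 each. Leaving out 1 library gave 0 to 5, also with the gene set kept. In hippocampus (0 in edgeR) DESeq2 called 3, limma-voom 2 and the fit on the hippocampal libraries alone 1, and every fit with a library left out called 0 on either gene set. In the average (9) DESeq2 called 19, limma-voom 16, upper-quartile factors 15, no filter 2, the replicate block 6 and the replicate block within region 5. With 1 library left out the range was 1 to 12, or 2 to 13 with the gene set kept. Between regions (0) DESeq2 called 6, and for the interaction (0) it called 4, with 0 in every left-out fit of either. Leaving out a library raised the number of genes tested from 12613 to 13959 to 14422, and keeping the gene set restored some calls (Atp5g3 in cortex in 6 of 12 fits rather than 0). The cause of the other shifts was not tested.

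Over all genes, edgeR called 1428 in cortex, 418 in hippocampus, 24 between regions and 0 in the interaction, and DESeq2 3219, 1457, 723 and 522. No pairing by number was seen: 18 same-numbered pairs correlated at -0.05 to 0.03, none over 0.1, and other pairs at -0.04 to 0.06. Of the 12 libraries, 3 correlated best with their own number. With the wide variation among replicates a shared animal could go unseen, so this cannot decide whether same-numbered libraries are paired. The replicate block is a check of shared numbers only.

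Limits: with 3 libraries a group and a coefficient of variation of 1.28, differences of single genes were often not detectable. Levels of genes under a few counts rest on few reads. The cell types differ with the classes, and class and cell composition cannot be told apart here.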

Other observations

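Among the 12 rows left out by name or annotation, 1 was well expressed. Ndufb1-ps, which the annotation calls a bidirectional promoter long noncoding RNA, had 41 to 1159 counts in every library. Its counts were 334, 569 and 496 in cortex CD51+, 185, 41 and 192 in cortex CD51-, 92, 453 and 91 in hippocampus CD51+, and 1005, 1159 and 426 in hippocampus CD51-. The processed pseudogene Ndufa11b had 64 counts in cortex CD51- replicate 2 and at most 1 in each other library. Ndufa11 itself had fewer in cortex CD51- replicate 2, 35 counts (4.19 CPM). Exon bases were shared with other annotated genes in 30 of the 86 rows, and by more than 10% in 12 of them.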
